A study of Mus musculus with 26 samples.

Results

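The nuclear-encoded subunits of the mitochondrial respiratory chain and of ATP synthase were followed in mouse inguinal subcutaneous white adipose tissue. Members were taken by gene name from the array annotation, as names starting with Nduf (complex I), Sdh (complex II), Uqcr (complex III), Cox4 to Cox8 (complex IV) or Atp5 (complex V). The thermogenic forms Cox7a1 and Cox8b and pseudogene names were left out. The array carried 81 such names, and 80 of them, all but Cox8c, were among the 26154 gene names of the table of values. They comprised 37 names of complex I, 4 of complex II, 8 of complex III, 14 of complex IV and 17 of complex V. Where a gene had more than 1 probe, the brightest was read. The genes of the chain that mitochondrial DNA encodes are outside this list and were not analysed here.

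Complexes I to IV pass electrons from NADH and succinate to oxygen and build up a proton gradient across the inner mitochondrial membrane, and complex V uses that gradient to make ATP. White adipocytes hold fewer mitochondria than brown and beige adipocytes, in which the uncoupling protein Ucp1 lets the gradient run down as heat. ChREBP, the product of Mlxipl, is a glucose-responsive transcription factor known for its control of glycolytic and lipogenic genes. It exists as a long form, ChREBPα, and a shorter form, ChREBPβ, made from an alternative first exon.

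Gene expression was measured with 1 array per mouse in 26 mice, which fell into 4 groups by their labels. Total ChREBP KO mice (total KO, n = 7) lacked both isoforms and ChREBPβ KO mice (β KO, n = 5) lacked the shorter one through a CRISPR/Cas9 deletion of its specific exon. Each had WT animals of its own line (total WT, n = 7; β WT, n = 7). The methods describe male C57BL6/J mice, both deficiencies were present in every tissue, ages were not given in the sources used here, and the founder line behind the β arrays was not stated. All mice on a regular diet were fasted for 24 h and then had 18 h of food and water with 20% glucose. Values are log2 intensities, quantile normalized by the authors, and a difference of 1 is a 2-fold difference on that scale. A level of one gene cannot be set against that of another, because probes differ in their response.

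Mlxipl itself read 15.77 to 16.54 in total WT and 13.63 to 13.95 in total KO, and 15.24 to 16.18 in β WT and 13.93 to 14.36 in β KO, with no overlap in either line. All 80 subunits were well above background on all 26 arrays. Most were bright: 66 had a mean above the 95th percentile of the table and 37 above the 98th. The score of 13 adipocyte markers, their mean log2 value, ran from 15.51 to 15.98 in total WT, 16.26 to 16.43 in total KO, 16.11 to 16.27 in β WT and 16.02 to 16.42 in β KO, and other tissues also contributed. The skeletal muscle marker score, the mean log2 value of 15 genes, ran from 6.01 to 12.68 over the arrays and varied within each group. The lymphocyte score of 16 genes ran from 11.04 to 12.64 in total WT, 8.14 to 11.35 in total KO, 7.49 to 8.54 in β WT and 7.49 to 9.05 in β KO. Ucp1 read 12.58 to 16.54 in total WT, against 7.38 to 10.10 in total KO, 6.51 to 11.57 in β WT and 5.67 to 8.62 in β KO. In such bulk samples, fewer cells of a type and less RNA per cell cannot be told apart.

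Loss of both isoforms was accompanied by a modest, one-sided shift of the subunits. Of the 80 subunits, 29 (36.25%) were higher in total KO than in total WT and 1 (1.25%) was lower, at an adjusted p under 0.05 with limma over all 40168 probes. In the same comparison 11 of the 13 adipocyte markers were higher and 1 lower (median 0.50), and their score did not overlap between the groups. Its part in the shift of the subunits was not tested. Among all probes, 25.9% were called higher and 19.6% lower, so the excess over the background lay mainly in how few subunits were lower. Among the 1964 probes above the 95th percentile of brightness, 30.1% were higher and 26.3% lower. The median difference over the subunits was 0.14 (9.89%) against 0.05 over all probes, and 68 of the 80 subunits lay above 0. Called subunits were found in each complex. They numbered 14 of 37 in complex I, 1 of 4 in complex II, 2 of 8 in complex III, 3 of 14 in complex IV and 9 of 17, with 1 lower, in complex V. The median difference was highest in complex V (0.21) and lowest in complex IV (0.09).

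**Figure D1:**
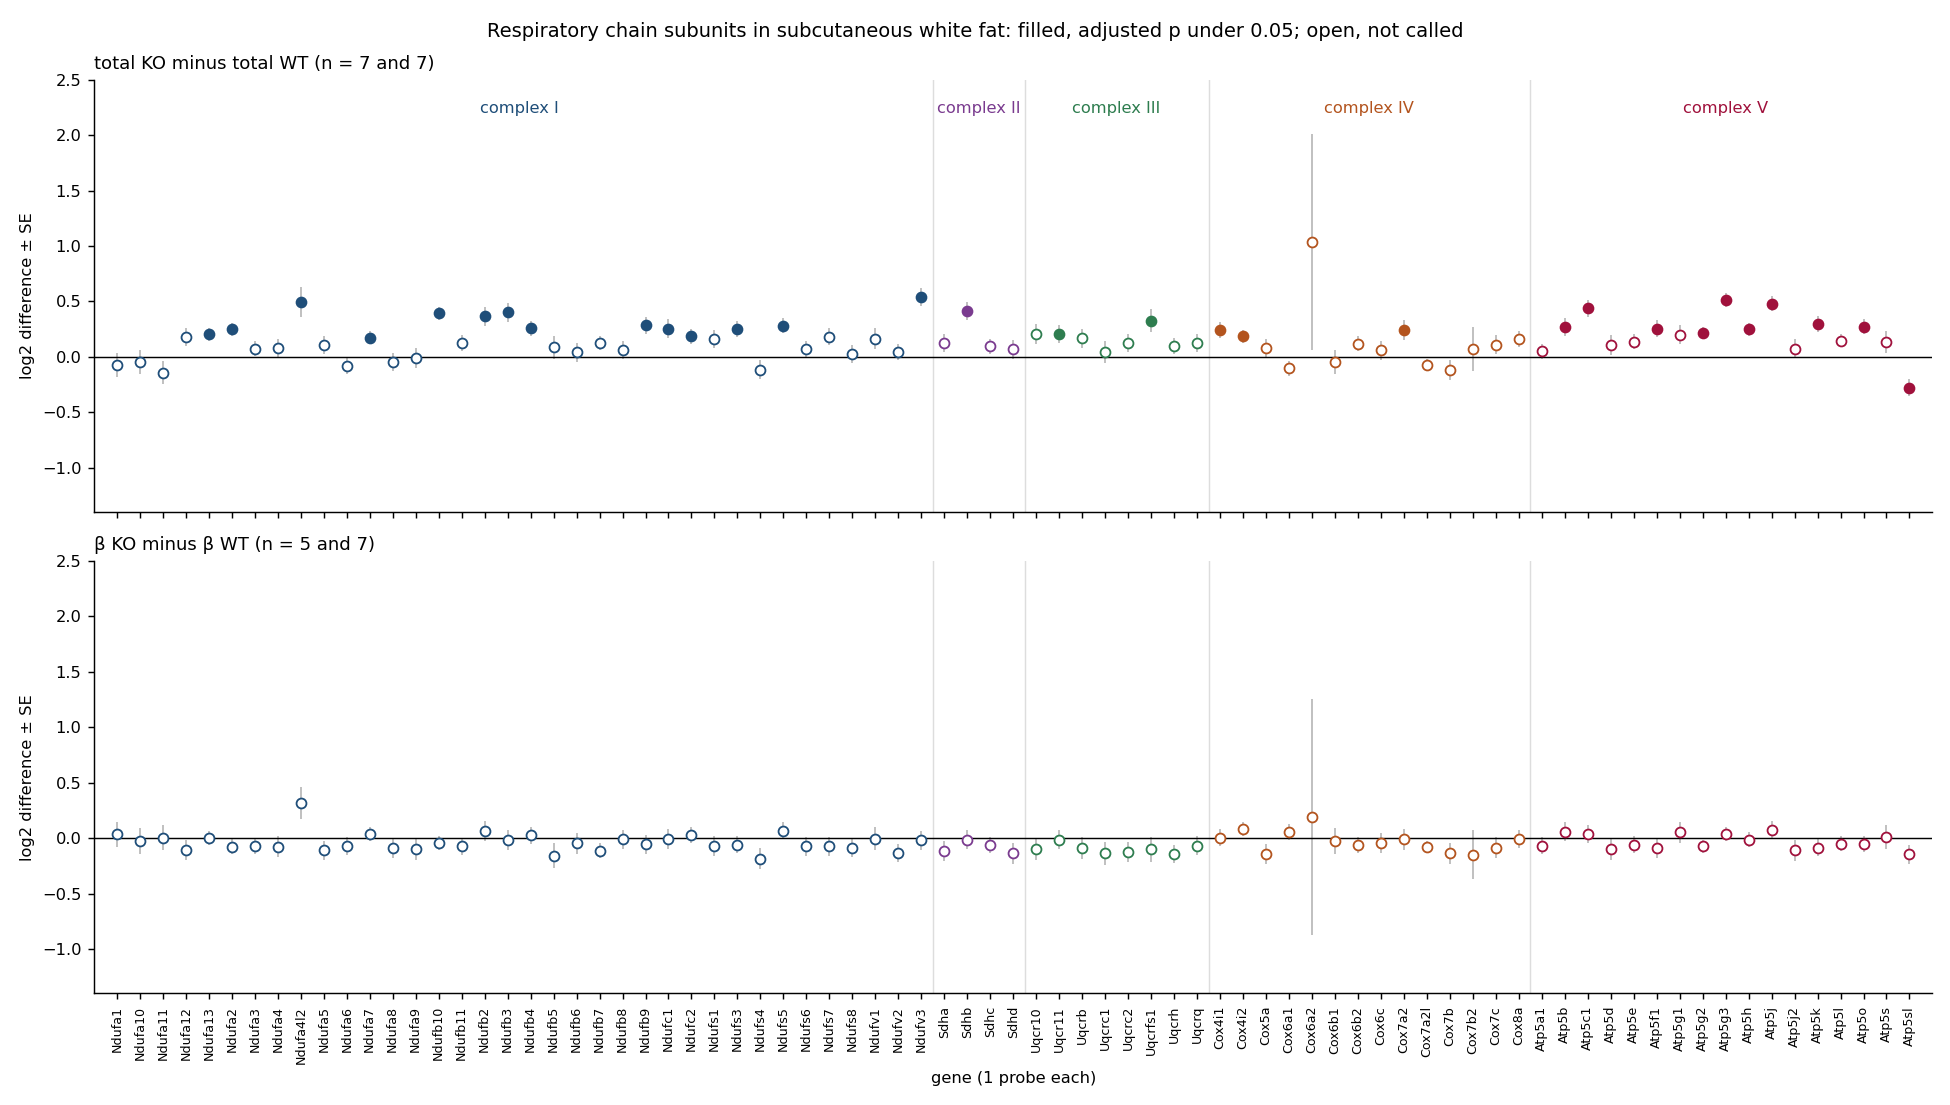
Log2 difference (vertical axis, ± SE of the fit) for 79 of the 80 subunits, grouped by complex along the horizontal axis, for total KO minus total WT (upper panel) and β KO minus β WT (lower panel). Filled points were called at adjusted p under 0.05. In the upper panel 29 points are called above 0 and 1, Atp5sl, below it. In the lower panel none is called and 60 of 79 points lie below 0. The long bar belongs to Cox6a2.

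In complex I, the largest difference was that of Ndufv3, a small accessory subunit of the NADH-oxidizing module. Ndufv3 read 15.37, 15.75 and 15.82 (lowest, median and highest array) in total WT and 16.07, 16.21 and 16.41 in total KO. Every total KO array was above every total WT array, and the log2 difference was 0.54 ± 0.08 (SE, limma adjusted p = 6.47e-06, 1.45-fold). The accessory subunits of the membrane arm Ndufb10, Ndufb3 and Ndufb2 gave differences of 0.39 ± 0.06, 0.40 ± 0.08 and 0.36 ± 0.08 and no overlap between the groups. Ndufb10 ran from 15.80 to 16.07 in total WT and from 16.18 to 16.41 in total KO. Ndufs5, another accessory subunit, was 0.28 ± 0.07 higher, also without overlap.

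Most of the core subunits of complex I named here were not called. Ndufs1, the largest iron-sulfur subunit, read 14.35, 14.66 and 14.80 in total WT and 14.65, 14.77 and 15.02 in total KO, a difference of 0.16 ± 0.08 (limma adjusted p = 0.108). Ndufv1, which binds the FMN that accepts electrons from NADH, gave 0.16 ± 0.10 (limma adjusted p = 0.171). Neither was called, and for both the groups overlapped. Ndufs7, Ndufs8 and Ndufv2, also core subunits, gave 0.18, 0.03 and 0.04 and were not called (limma adjusted p = 0.0642, 0.811 and 0.677). Ndufs3, a core subunit as well, was among the 14 called.

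Ndufa4l2 is a hypoxia-inducible relative of Ndufa4, a protein first assigned to complex I and since found in complex IV. Ndufa4l2 read 9.88, 10.29 and 10.58 in total WT and 10.27, 10.73 and 10.98 in total KO. The groups overlapped, and the difference was 0.50 ± 0.13 (limma adjusted p = 0.00356). Ndufa4 itself gave 0.08 ± 0.09 and was not called.

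In complex II, which links the citric acid cycle to the chain, Sdhb, the iron-sulfur subunit, read 15.30, 15.69 and 15.82 in total WT and 15.92, 16.08 and 16.23 in total KO. The groups did not overlap and the difference was 0.42 ± 0.08 (limma adjusted p = 0.000147). The flavoprotein partner Sdha gave 0.12 ± 0.08, and the membrane anchors Sdhc and Sdhd gave 0.09 ± 0.07 and 0.07 ± 0.08, none of them called. A second Sdhb probe differed by 0.25 and was not called (limma adjusted p = 0.0751).

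In complex III, Uqcrfs1, the Rieske iron-sulfur protein, read 14.52, 14.82 and 15.06 in total WT and 14.84, 15.06 and 15.41 in total KO. The ranges overlapped, with a difference of 0.32 ± 0.10 (limma adjusted p = 0.0128). The small subunit Uqcr11 was higher by 0.20 ± 0.08 (limma adjusted p = 0.0449). Uqcrc1, a core structural subunit, gave 0.04 ± 0.10.

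In complex IV, the copper- and heme-bearing core is made in mitochondria, and the Cox genes here encode the nuclear subunits around it. Cox4i1, the common form of subunit 4, read 16.61, 16.81 and 17.09 in total WT and 16.84, 17.11 and 17.17 in total KO, a difference of 0.24 ± 0.07 (limma adjusted p = 0.00769) with overlap. Its oxygen-sensitive alternative Cox4i2 was higher by 0.19 ± 0.06 (limma adjusted p = 0.0141), and Cox7a2, the common form of subunit 7a, by 0.24 ± 0.09 (limma adjusted p = 0.0273). The call for Cox7a2 was lost in 15 other settings and kept in 17. Cox5a, Cox6b1, Cox7b, Cox8a, Cox7a2l (a factor in supercomplex assembly) and the restricted forms Cox6b2 and Cox7b2 were not called, with differences between -0.12 and 0.16.

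The largest share called was in ATP synthase. Its rotor ring of c subunits comes from 3 genes that encode the same mature protein, Atp5g1, Atp5g2 and Atp5g3. Atp5g3 read 16.23, 16.44 and 16.58 in total WT and 16.83, 16.88 and 17.02 in total KO. No array overlapped, and the difference was 0.51 ± 0.06 (limma adjusted p = 2.18e-07, 1.43-fold). Atp5g2 was higher by 0.21 ± 0.05 (limma adjusted p = 0.00237), with ranges of 15.62 to 15.77 and 15.74 to 16.00 that touched on their ends. Atp5g1 gave 0.20 ± 0.09 and was not called (limma adjusted p = 0.0659).

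In the catalytic head of ATP synthase, the central stalk subunit Atp5c1 read 15.80, 16.08 and 16.23 in total WT and 16.28, 16.54 and 16.63 in total KO. It was higher by 0.44 ± 0.08 (limma adjusted p = 4.76e-05) without overlap. The catalytic subunit Atp5b was higher by 0.27 ± 0.08 (limma adjusted p = 0.00789), whereas its partner Atp5a1 gave 0.05 ± 0.07 and was not called. Atp5j, the coupling factor of the peripheral stalk, ran from 14.58 to 14.91 in total WT and from 15.15 to 15.41 in total KO (0.48 ± 0.07, limma adjusted p = 3.4e-06). A dim second Atp5j probe went the other way by -0.32 (limma adjusted p = 0.029). The single subunit name called lower was Atp5sl, with 11.38 to 11.83 in total WT and 11.13 to 11.44 in total KO (-0.28 ± 0.08, limma adjusted p = 0.00476). Atp5sl is listed as Dmac2 in the RefSeq table and is known for complex I assembly, not as a part of ATP synthase.

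**Figure D2:**
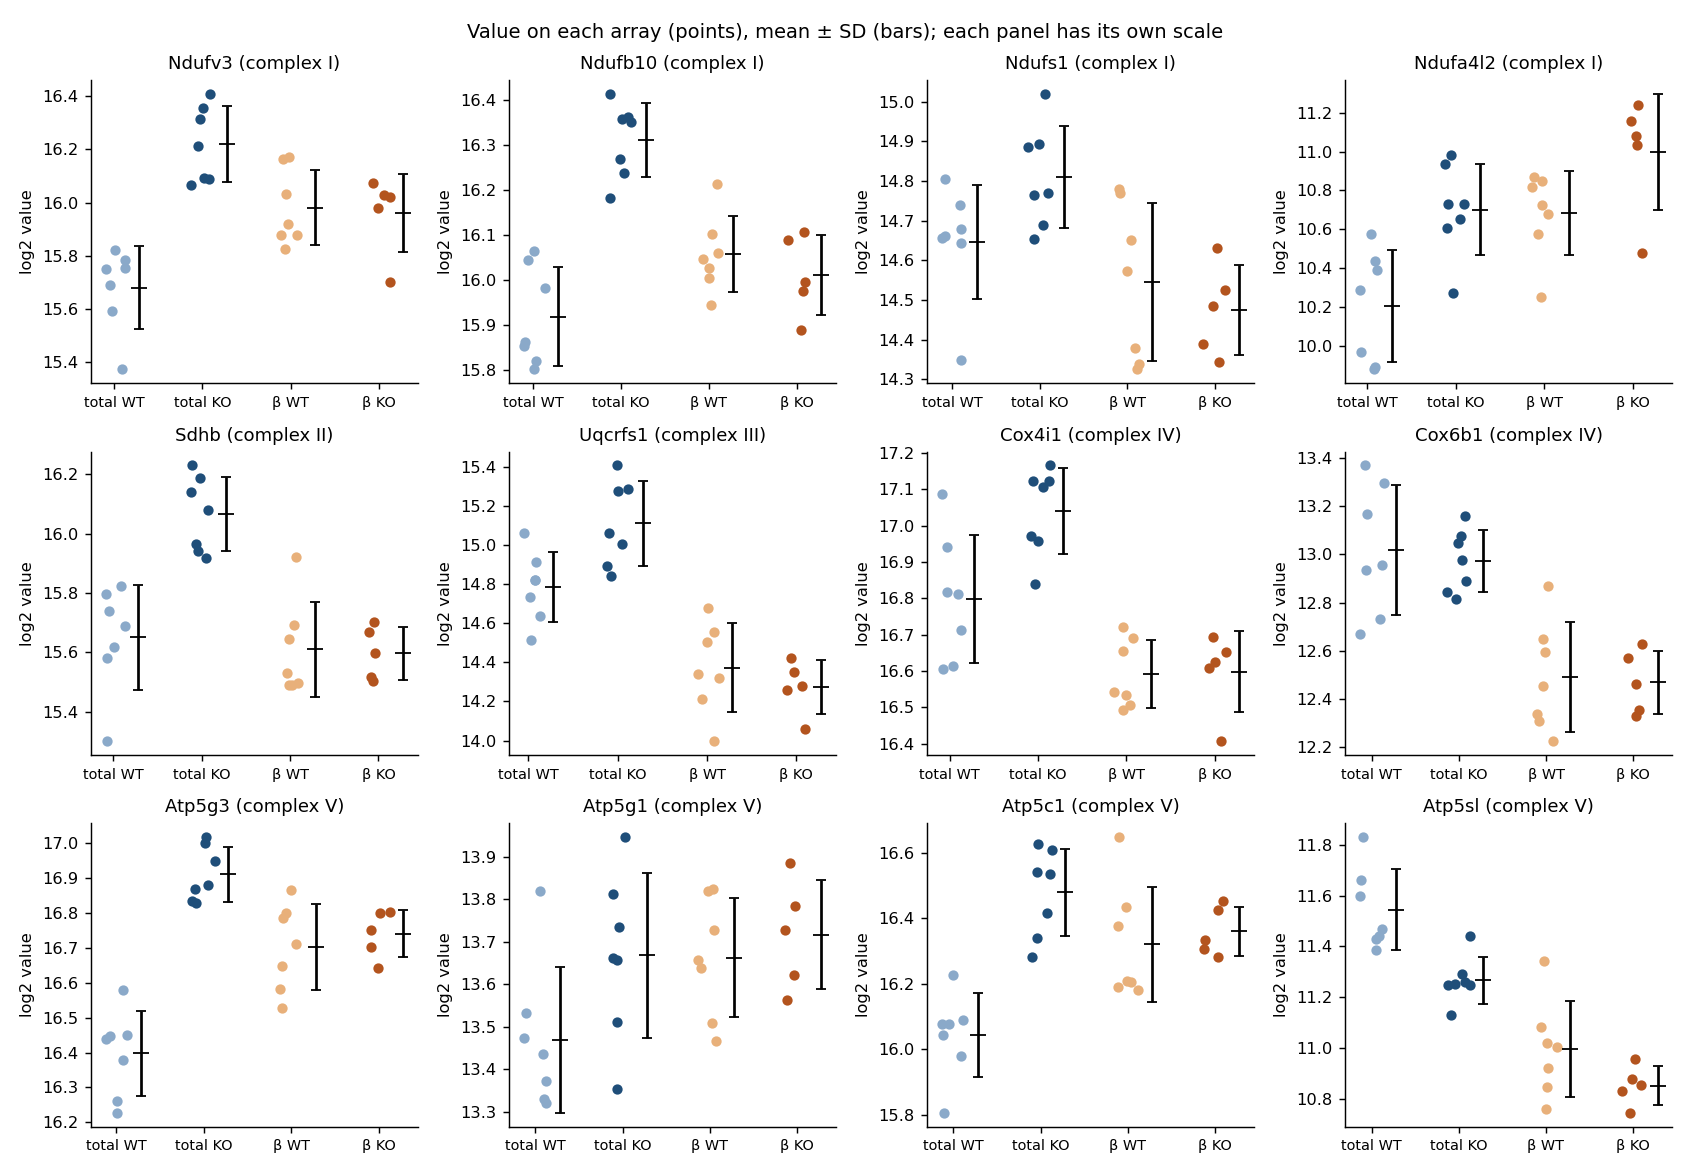
Log2 value (vertical axis, own scale in each panel) of 12 subunits on each of the 26 arrays, by group along the horizontal axis. Points are arrays and bars are mean ± SD (n = 7, 7, 7 and 5). For Ndufv3, Ndufb10, Sdhb, Atp5g3 and Atp5c1 all total KO arrays lie above all total WT arrays. The β KO arrays overlap the β WT arrays in every panel.

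In all, 9 of the 80 subunits (11.25%) had total KO and total WT arrays that did not overlap, against 14% of all probes in either direction. These were Ndufb10, Ndufb2, Ndufb3, Ndufs5, Ndufv3, Sdhb, Atp5c1, Atp5g3 and Atp5j, and in all 9 the total KO arrays were the higher. Of 18 further probes for called subunits, 16 had the same sign as the chosen probe and 7 were called in its direction. Among the 4 wash batches named in the labels, the median over all 80 subunits was -0.08, 0.21, 0.08 and 0.27 in batches 1 to 4. In the same order, 28, 74, 57 and 74 of the 80 lay above 0. Of the 29 subunits called higher, 23 lay above 0 in each batch. They were called on these same arrays, and batches held few arrays of each group, so this is no separate check. Atp5g3 differed by 0.35, 0.38, 0.58 and 0.60 and Ndufv3 by 0.38, 0.30, 0.50 and 0.83 in those batches, while Cox4i1 gave -0.06 in the first and 0.35, 0.17 and 0.41 in the others.

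The count depended on scaling. With each array scaled to its 75th percentile in place of quantile normalization, 9 (median signal) or 11 (processed signal) subunits were called higher and none lower, and with slide as a fixed block 4 were. Of all probes, 42.2% and 45.9% were called under the 75th percentile scalings and 21.5% with the slide block, against 45.5% in the fit reported. Atp5g3, Ndufb10 and Ndufv3 were called higher in each of 32 fits. Leaving out the 9 arrays with a muscle score over 10, a limit chosen after the data were seen, left 14 subunits higher and 1 lower. That fit held 3 total KO and 5 total WT arrays and called 33.0% of all probes.

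Loss of ChREBPβ alone changed no subunit detectably. None of the 80 passed the test in β KO against β WT, where 0.00498% of all probes were called higher and 0.0324% lower, and limma gave 1 subunit an unadjusted p under 0.05. That subunit was Ndufa4l2, with β WT arrays at 10.25, 10.72 and 10.87 and β KO arrays at 10.48, 11.04, 11.08, 11.15 and 11.24, a difference of 0.32 ± 0.15 (limma adjusted p = 0.615). Of its 5 β KO arrays, 4 were above all β WT arrays. The median difference over the subunits was -0.06 against 0.00 over all probes, with 61 of 80 below 0. No subunit had β KO and β WT arrays that did not overlap, which 0.393% of all probes did.

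The subunits that led in total KO gave differences close to 0 in β KO, with standard errors that allow modest changes. Ndufv3 read 15.83 to 16.17 in β WT and 15.70, 15.98, 16.02, 16.03 and 16.07 in β KO, a difference of -0.02 ± 0.09. Atp5g3 read 16.53 to 16.86 in β WT and 16.64, 16.70, 16.75, 16.80 and 16.80 in β KO (0.04 ± 0.07). Sdhb gave -0.01 ± 0.09, Uqcrfs1 -0.10 ± 0.11, Cox4i1 0.01 ± 0.08 and Atp5c1 0.04 ± 0.08. The lowest value was that of Ndufs4, an accessory subunit whose loss causes Leigh-like disease, at -0.18 ± 0.10.

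The difference between both knockout effects was tested as an interaction term, in which a negative value means that the β effect was lower than the total effect. The term was called below 0 for 16 subunits (20%) and above 0 for none, against 12.5% and 10% of all probes. Among the 1964 probes above the 95th percentile of brightness, 18.0% were called below 0 and 13.8% above. The share below 0 was thus near that of bright probes, and the difference lay mainly in the absence of calls above 0. Among them were 6 of complex I, 1 of complex II (Sdhb), 1 of complex III (Uqcrfs1), none of complex IV and 8 of complex V. Ndufv3 gave -0.56 ± 0.12 (limma adjusted p = 0.00148), Atp5g3 -0.47 ± 0.09 (limma adjusted p = 0.000498) and Ndufb10 -0.44 ± 0.08 (limma adjusted p = 0.000511). The term compares groups whose WT animals themselves differed, and it shares the total WT arrays with the comparison above. Of the named calls, that of Uqcrfs1 (-0.42, limma adjusted p = 0.0485) was lost in 24 other settings and kept in 19. The count fell to 5 subunits with 75th percentile scaling of either signal. Of all probes, 22.7% (median signal) and 23.3% (processed signal) were called there, against 22.5% in the fit reported.

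The WT groups of the lines also differed in these genes. In β WT, 7 subunits (8.75%) were higher and 23 (28.75%) lower than in total WT, against 25.6% and 19.8% of all probes, and the median over the subunits was -0.11 against 0.03. Complex IV held the largest share of lower calls, with 7 of 14 lower and none higher. Complex V had 3 higher and 2 lower, and a median of -0.01. Line, litter and background cannot be told apart in this comparison.

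Among the named subunits, Ndufa1 differed most between the WT groups. Ndufa1, an X-linked subunit needed for complex I assembly, read 15.11, 15.60 and 15.88 in total WT and 14.80, 14.93 and 15.17 in β WT (-0.63 ± 0.10, limma adjusted p = 2.31e-05), with ranges that overlapped by their ends. Cox6b1, which joins complex IV dimers, read 12.67, 12.96 and 13.37 in total WT and 12.22, 12.46 and 12.87 in β WT (-0.53 ± 0.11, limma adjusted p = 0.000249). Cox7b was lower by -0.43 ± 0.09 (limma adjusted p = 0.000278), Uqcrfs1 by -0.41 ± 0.10 (limma adjusted p = 0.00211) and Atp5sl by -0.55 ± 0.08 (limma adjusted p = 3.1e-06). Cox6a1, the common form of subunit 6a, was lower by -0.32 ± 0.07 (limma adjusted p = 0.000328).

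The 7 higher subunits were Ndufa4l2, Ndufb10, Ndufb7, Ndufv3, Atp5c1, Atp5g3 and Atp5j. The call for Ndufb10 was kept in 15 other settings, lost in 14 and changed sign in 3. The dim second Atp5j probe went the other way by -0.49 (limma adjusted p = 0.00131). Of 14 further probes for called subunits in this comparison, 12 had the same sign as the chosen probe and 8 were called in its direction. Side by side, Atp5g3 averaged 16.40 in total WT, 16.91 in total KO, 16.70 in β WT and 16.74 in β KO. Ndufv3 averaged 15.68, 16.22, 15.98 and 15.96 in the same order. For these 2 genes both groups of the β line sat between total WT and total KO. Uqcrfs1 averaged 14.79, 15.11, 14.37 and 14.27, and here both groups of the β line sat below both of the total line. Within wash batches, the 7 higher subunits were above 0 in all 4 and 20 of the 23 lower ones were below 0 in all 4. These subunits were called on the same arrays, and batches held few arrays of each group, so this is no separate check. The median over all 80 subunits did not repeat in each batch. It was -0.22, -0.11, -0.32 and 0.06 in batches 1 to 4, and 49 of the 80 lay above 0 in batch 4. The count of 30 fell to 18 when values were recomputed from the scanner files and to 19 without β WT replicate 3. Of all probes, 45.2% and 45.1% were called in these fits, against 45.3% in the fit reported. With the thermogenic score as a covariate, whose values did not overlap between the WT groups, 21 subunits were higher and 1 lower (median 0.23).

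Among the tissue-restricted forms of complex IV subunits, Cox6a2 followed the muscle markers. Cox6a2, the heart and skeletal muscle form of subunit 6a, ran from 6.94 to 11.78 in total WT, 5.97 to 12.97 in total KO, 6.38 to 11.01 in β WT and 6.53 to 12.51 in β KO. Its SD was 1.97 over the groups, against a median of 0.14 over all subunits, and its difference of 1.04 ± 0.97 in total KO was not called. In a fit with the group means and the muscle score, a choice made after the data were seen, Cox6a2 rose by 0.85 ± 0.06 for each log2 unit of the score (limma adjusted p = 7.53e-10), and no other subunit had a positive slope at adjusted p under 0.05. Of all probes, 0.503% had one. With the muscle score as a covariate, Cox6a2 was lower in total KO by -1.16 (limma adjusted p = 0.0147), so its direction turned. On the total WT arrays with the least muscle, Cox6a2 was higher than on arrays of the other groups with as little.

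**Figure D3:**
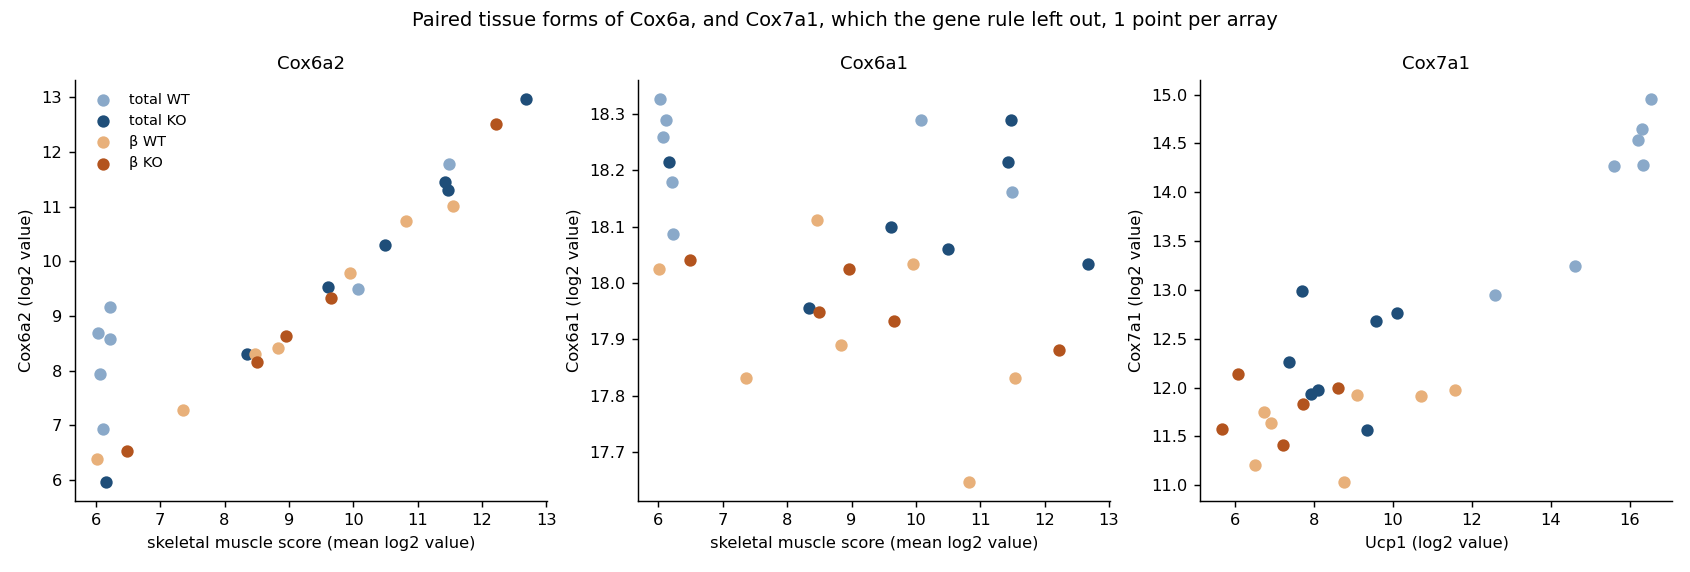
Log2 value of Cox6a2 (left) and Cox6a1 (middle) against the skeletal muscle score of the array, and of Cox7a1 (right) against the log2 value of Ucp1, with 1 point per array and 1 colour per group. Cox6a2 climbs with the muscle score over most of its range of 5.97 to 12.97, Cox6a1 does not, and the 7 total WT arrays sit apart from the rest in the right panel, with Cox7a1 between 12.94 and 14.96.

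Of the thermogenic forms that the gene rule left out, Cox7a1 was lower in total KO and Cox8b was not called. Cox7a1, the brown fat and muscle form of subunit 7a, read 12.94, 14.28 and 14.96 in total WT and 11.57, 12.26 and 12.99 in total KO, a difference of -1.82 ± 0.27 (limma adjusted p = 5.97e-06). Its counterpart Cox7a2 was called higher, but that call was lost in 15 other settings and kept in 17. Cox7a1 differed by -2.49 ± 0.27 between β WT and total WT (limma adjusted p = 8.31e-08) and by 0.16 ± 0.29 between β KO and β WT. Cox8b, the corresponding form of subunit 8, read 14.81 to 15.87 in total WT, 15.41 to 16.50 in total KO, 13.61 to 15.01 in β WT and 13.59 to 14.49 in β KO. It gave 0.46 ± 0.21 in total KO (limma adjusted p = 0.0774) and -1.11 ± 0.21 between the WT groups (limma adjusted p = 0.000109). Of 9 thermogenic markers, these forms included, 7 were lower in total KO, among them Ucp1 by -6.87 and Cidea by -2.07. Dio2, which activates thyroid hormone, was higher by 1.46.

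Within groups, the subunits went with the thermogenic markers. A score of 7 such markers, without Cox7a1 and Cox8b, ran from 10.06 to 12.72 in total WT, 9.02 to 9.89 in total KO, 8.71 to 9.99 in β WT and 8.28 to 9.48 in β KO. In a fit with the 4 group means and this score, also chosen after the data were seen, the slope was positive for 76 of 80 subunits and called for 29 (36.25%), against 2.19% of all probes. The called subunits included Cox6b1 (0.27 ± 0.04 for each log2 unit of the score), Uqcrc1 (0.23 ± 0.04), Cox7a2 (0.22 ± 0.04), Ndufa1 (0.22 ± 0.05), Uqcr10 (0.22 ± 0.04) and Sdhd (0.20 ± 0.04). By complex they covered 11 names starting with Nduf, Sdhd alone of complex II, 7 of the 8 of complex III, 7 of complex IV and 3 of complex V. Without the 2 arrays whose scores lay farthest from the median, 3 were called (Cox6b1, Cox7a2 and Atp5k) and 0.189% of probes.

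For the lymphocyte score, the slope was negative and called for 3 subunits (3.75%), Ndufb4, Ndufb8 and Ndufv3, close to the 3.28% of all probes. No subunit was called positive, against 7.24% of all probes. Only 5 of the 80 slopes were positive, with a median of -0.068 against -0.025 over all probes. Without the 2 arrays farthest from the median score, 2 subunits were called (Ndufb4 and Ndufb8), against 1.98% of probes. The part of these markers in the group differences was not tested. As a measurement, 66 subunits were higher in total KO with the thermogenic score as a covariate, although its values in total WT and total KO did not overlap, 34 were called (32 higher) with the muscle score, and 5 with the muscle and lymphocyte scores together, where lymphocyte scores of the groups overlapped between 11.04 and 11.35. Of all probes, 34.9%, 41.4% and 13.9% were called in these 3 fits, against 45.5% without a score.

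**Figure D4:**
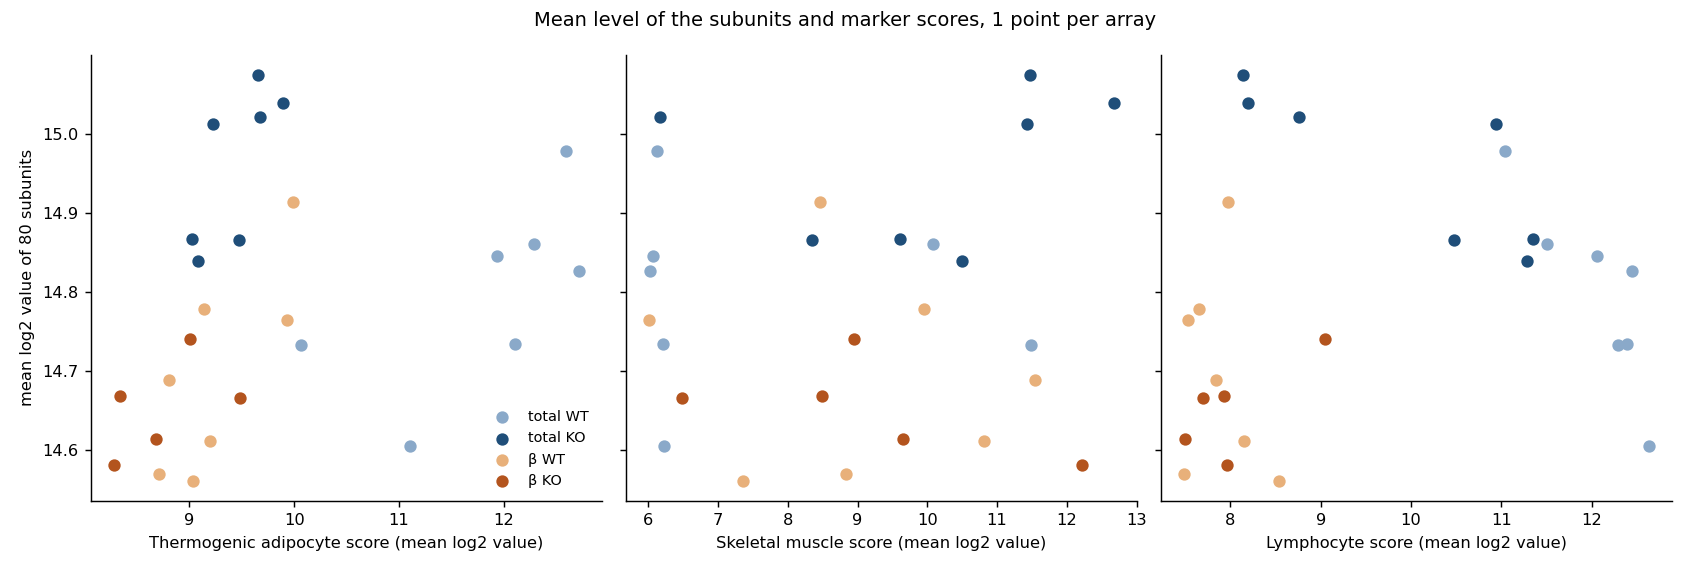
Mean log2 value of the 80 subunits (vertical axis) on each array against the thermogenic adipocyte score without Cox7a1 and Cox8b (left), the skeletal muscle score (middle) and the lymphocyte score (right). Colours mark the groups. The mean of the subunits spans 14.56 to 15.07, all 7 total WT arrays lie to the right of the other groups in the left panel, and the 4 highest subunit means are those of total KO arrays.

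Other genes of the pathway were read against the same background in total KO, 25.9% of probes higher, 19.6% lower and a median of 0.05. Of 48 assembly factors of the 5 complexes, 18 were higher and 2 lower in total KO (median 0.17). Cox14, which escorts newly made Cox1, was higher by 0.70 ± 0.06, the complex I factor Tmem126b by 0.68 ± 0.12 and the complex IV factor Coa7 by 0.69 ± 0.13, while Cox19, linked to copper handling, was lower by -0.53 ± 0.09. Of 76 mitochondrial ribosomal proteins, which make the mitochondrially encoded subunits, 35 were higher and 2 lower (median 0.15). Among 12 respiratory genes outside the name rule, 6 were higher and 1 lower. The electron-transfer flavoproteins Etfb and Etfa, which feed electrons from fatty acid oxidation, were higher by 0.66 ± 0.08 and 0.48 ± 0.08, and the coenzyme Q factor Coq9 by 0.66 ± 0.14.

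The enzymes that supply the chain and the factors that regulate its genes were read against that background as well. Both lists are short, so a few genes move their shares. Of 17 genes of the citric acid cycle and pyruvate dehydrogenase, 3 (17.6%) were higher and 4 (23.5%) lower. The pyruvate dehydrogenase subunits Pdha1, Pdhb and Dlat were lower by -1.35 ± 0.11, -0.94 ± 0.09 and -0.90 ± 0.13, and Suclg2 of the cycle was higher by 0.55 ± 0.12. Of 19 regulators of mitochondrial biogenesis, 3 (15.8%) were higher and 2 (10.5%) lower (median -0.04). The coactivator Ppargc1a gave -0.32 and the factors Nrf1, Gabpa, Esrra and Tfam gave -0.09, -0.11, -0.07 and -0.04, none of them called. Of the called regulators, Ppara and Peo1 were higher, by 1.03 ± 0.17 and 0.31 ± 0.10. Esrrg and Pprc1 were lower, by -0.78 ± 0.25 and -0.29 ± 0.10. In β WT against total WT, none of the 19 was higher and 7 (36.8%) were lower, against 25.6% and 19.8% of all probes. Among the lower ones were Esrrg by -1.20 ± 0.25, Ppargc1a by -0.73 ± 0.18, Ppara by -0.67 ± 0.17 and Tfam by -0.35 ± 0.06. In β KO against β WT none of these lists had a called gene.

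Promoter sequence was read for the subunits as background to their shared movement. RefSeq windows of the GRCm38.p6 assembly, 250 bases before and 50 after each start, were found for 66 of the 80 subunits, 63 by symbol and 3 by a former name. Letters of 5 motifs were searched on both strands. They were CGCATGCG (core of the NRF1 motif), CCGGAAG (ETS factors such as GABPA), TCAAGGTCA (estrogen-related receptors), AAGATGGC (YY1) and CACGTG (E-box). The same subunit could count for several motifs, as Atp5j did for the NRF1 core and the ETS and YY1 letters. The NRF1 core was present for 9 subunits (13.6%) against 2.07% of all 27025 symbols, the ETS letters for 16 (24.2%) against 9.93%, the YY1 letters for 11 (16.7%) against 3.19%, the estrogen-related receptor letters for 2 (3.03%) against 0.466% and the E-box for 7 (10.6%) against 8.09%. The subunits' windows had a median GC content of 57.5%, against 52.7% over all windows. Among the 24 subunits called higher in total KO and the other 42, the shares were 16.7% and 11.9% for the NRF1 core and 25.0% and 23.8% for the ETS letters. They were 12.5% and 19.0% for the YY1 letters, 12.5% and 9.52% for the E-box and 4.17% and 2.38% for the estrogen-related receptor letters. A match describes letters, not a bound site.

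The 250 bases before the start are shown for 4 subunits that carry the results above, with motif letters in capitals. Ndufv3 (chr17:31519865-31520114, plus strand), which had the largest difference in total KO, held none of the 5 motifs there. Atp5g3 (chr2:73911327-73911576, minus strand) held an E-box that begins 238 bases before the start and the estrogen-related receptor letters on the other strand, 52 bases before it. Atp5k (chr5:108434400-108434649, minus strand), a small membrane subunit of ATP synthase that was higher in total KO and followed the thermogenic score, held the NRF1 core 49 bases before the start. Cox6b1 (chr7:30626115-30626364, minus strand), with the steepest thermogenic slope, held the ETS letters on the other strand, 28 bases before it.
Ndufv3: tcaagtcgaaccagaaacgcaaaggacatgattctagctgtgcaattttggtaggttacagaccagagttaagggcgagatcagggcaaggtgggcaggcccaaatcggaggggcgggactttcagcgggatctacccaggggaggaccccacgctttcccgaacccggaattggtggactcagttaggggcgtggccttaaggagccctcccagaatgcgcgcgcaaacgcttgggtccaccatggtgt
Atp5g3: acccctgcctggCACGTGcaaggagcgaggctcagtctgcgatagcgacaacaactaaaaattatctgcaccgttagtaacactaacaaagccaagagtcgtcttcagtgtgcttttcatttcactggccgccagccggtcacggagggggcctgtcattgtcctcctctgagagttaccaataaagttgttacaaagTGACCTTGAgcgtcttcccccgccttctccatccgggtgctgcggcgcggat
Atp5k: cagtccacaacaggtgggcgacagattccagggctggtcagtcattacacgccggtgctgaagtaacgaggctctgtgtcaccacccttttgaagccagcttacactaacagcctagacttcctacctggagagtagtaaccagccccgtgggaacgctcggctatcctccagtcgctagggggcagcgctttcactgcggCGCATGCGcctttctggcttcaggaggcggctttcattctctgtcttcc
Cox6b1: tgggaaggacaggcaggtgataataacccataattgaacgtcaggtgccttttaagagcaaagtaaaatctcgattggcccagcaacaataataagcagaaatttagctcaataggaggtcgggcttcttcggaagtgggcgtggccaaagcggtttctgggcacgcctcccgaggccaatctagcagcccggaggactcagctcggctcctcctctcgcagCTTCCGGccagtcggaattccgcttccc

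On the mm9 build of the array annotation, the probes read here lay at chr17:31668209-31668268 for Ndufv3, chr2:73746519-73746578 for Atp5g3, chr4:140535052-140535108 for Sdhb and chr7:31409575-31411071 for Cox6b1. Exon and UTR annotation of mm9 was not used here.

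**Figure D5:**
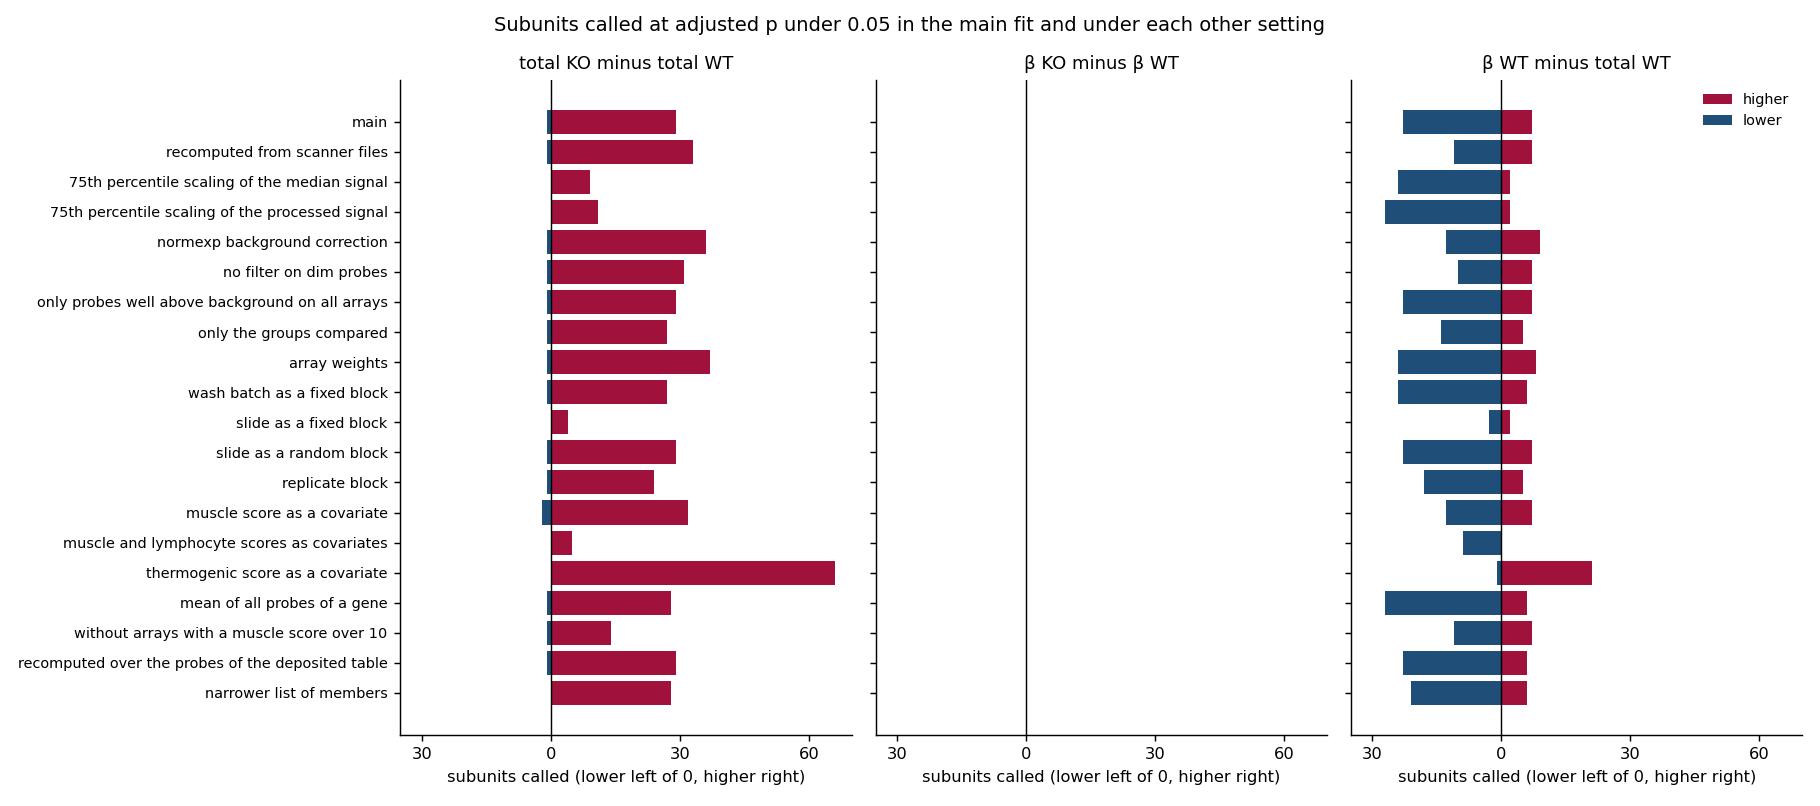
Number of subunits called (horizontal axis, lower calls to the left of 0 and higher calls to the right) in the main fit and under each other setting (rows), for total KO minus total WT, β KO minus β WT and β WT minus total WT. In total KO the higher calls range from 4 with slide as a fixed block to 66 with the thermogenic score as a covariate, against 29 in the main fit, and in β KO no setting gives a call.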

How the data were processed

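Total RNA of inguinal fat from 26 mice was labelled with Cy3 and hybridised to 1-colour Agilent mouse arrays, with 1 array per mouse and nothing pooled. The authors extracted spots with Agilent Feature Extraction 10.10.1.1, per the labels, and deposited intensity values with quality calls. The authors also deposited a log2 table of 40168 probes, made by a spot quality filter, quantile normalization and the median of replicate probes. This table gave the main values. Each column followed that array's log2 median signal (r from 0.999 to 1.00), so scale and direction were settled, without centring by gene. Its 97 missing values were outlier spots.

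The means of the 4 groups were fitted to all 26 arrays with limma 3.58.1 (lmFit, eBayes; R 4.3.3; 22 residual degrees of freedom), and p-values were adjusted by Benjamini-Hochberg over all probes, with calls at adjusted p under 0.05. The fit was tried on simulated data with independent normal noise and added shifts larger than any called subunit difference here. That trial does not measure the power at differences of this size. Members, lists and settings were chosen with earlier results of these data known. Named genes were fixed core and restricted subunits, the 3 largest called differences each way per comparison, and up to 4 genes of each other list. Other settings used the scanner files, blocks, marker scores, probe choice and leaving out each array. Leaving out muscle-rich arrays, the set of spots in the normalization and slopes without end arrays were added after the data were seen. Groups came from sample titles. Per array, median intensity was 59 to 107.5 over a background of 15 to 23, with 70.2% to 76.5% of spots well above it. The number of arrays limits the precision. p-values measure the spread between these mice. The values of 1 subunit counted among the members are not reported here by name. Promoter windows came from RefSeq (GRCm38.p6).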

Additional observations from a re-analysis of the deposited data

Results flagged for a closer look

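Of 116 sets of values (a named subunit in a group), 7 had 1 array standing off from the others of its group by Dixon's 95% limit, which chance does in about 1 in 20. The low arrays were total WT for Atp5b (16.55) and Ndufs1 (14.35), and β KO for Ndufa4 (14.69), Ndufa4l2 (10.48) and Ndufv3 (15.70). The high arrays were total WT for Atp5g1 (13.82) and β KO for Sdha (14.81).

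For 6 of the 29 named subunits the effect of losing ChREBPβ differed from that of losing both isoforms, by the interaction term of limma. Of all probes, 12.5% were called below 0 and 10% above. Ndufb10 was named only for its large value in this term, and Ndufv3 and Atp5g3 were among its largest calls. The count of 6 is thus in part a result of the naming. The β effect minus the total effect was -0.29 for Atp5g2, -0.47 for Atp5g3, -0.44 for Ndufb10, -0.56 for Ndufv3, -0.43 for Sdhb and -0.42 for Uqcrfs1 (limma adjusted p from 0.000498 to 0.0485). The call for Uqcrfs1 was lost in 24 other settings and kept in 19. The part of marker levels, which also differed between the groups, was not tested.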

How the results depend on the processing

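In total KO against total WT, the 30 subunits called became 9 with 75th percentile scaling of the median signal, 11 with that of the processed signal, 4 with slide as a fixed block, 5 with the muscle and lymphocyte scores, 66 with the thermogenic score and 15 without arrays with a muscle score over 10. For the difference of effects, the 16 became 5, 5, 0, 1, 62 and 4 under the same settings, in that order. The shares of all probes called for total KO were 42.2%, 45.9%, 21.5%, 13.9%, 34.9% and 33.0%, against 45.5% in the main fit. For the difference of effects they were 22.7%, 23.3%, 1.56%, 5.80%, 25.6% and 11.3%, against 22.5%. For β WT against total WT, the 30 became 18 recomputed from scanner files, 17 with no filter on dim probes, 19 with only the groups compared, 5 with slide as a fixed block, 9 with the muscle and lymphocyte scores and 18 without the muscle-rich arrays. Of all probes, 45.2%, 32.3%, 42.8%, 31.0%, 3.28% and 42.5% were called in these 6 fits, against 45.3% in the main fit. With the thermogenic score the direction of the WT comparison turned, from 7 higher and 23 lower (median -0.11) to 21 higher and 1 lower (median 0.23). The scores of the WT groups did not overlap there, and 25.7% of all probes were called. Leaving out 1 array in turn gave 26 to 40, 0 to 0, 11 to 24 and 19 to 40 calls in total KO, β KO, the difference of effects and the WT comparison, with 19 without β WT replicate 3. No setting gave a call in β KO. With 75th percentile scaling of the median signal, the median of all probes in the WT comparison moved from 0.03 to -0.07 and the share of higher calls among all probes from 56.4% to 43.9%. The cause was not tested, except that recomputing over the deposited table's own probes gave 30, 0, 16 and 29 calls, and that slide as a block left fewer degrees of freedom.

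With a replicate block the calls were 25, 0, 9 and 23, where 39.5%, 0.0124%, 14.4% and 42.6% of all probes were called. Replicate numbers were shared by groups of a line, but deviations of same-numbered arrays correlated between -0.36 and 0.51 over 10 pairs, and 2 pairs correlated best with their own number, so the numbers were not taken to pair the mice.

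Directions turned for some named subunits. With the thermogenic score, total KO minus total WT became 0.60 for Cox6b1, 0.33 for Cox7b and 0.45 for Ndufa1, and the difference of effects -0.49 for Cox6b1. β WT minus total WT became 0.18 for Cox4i1, 0.17 for Cox6b1, 0.39 for Cox7a2, 0.0505 for Cox7b, 0.32 for Cox8a, 0.38 for Ndufv1, 0.35 for Sdhb, 0.40 for Uqcrc1 and 0.051 for Uqcrfs1. With the muscle and lymphocyte scores it became 0.0100 for Cox7a2l, -0.0568 for Ndufa4l2, -0.073 for Ndufb10 and -0.10 for Ndufv3. Ndufb10 gave -0.0272 and -0.0536 with 75th percentile scaling of the median and processed signals. Cox6a2 in total KO became -1.16 with the muscle score. Of the other values of named subunits, 3745 kept direction and side of the threshold, 133 lost their call and 75 gained one.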

Other observations

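Markers of other cells moved in the same comparisons. In total KO against total WT, 11 of 13 adipocyte markers were higher and 1 lower with limma, among them Lpl, lipoprotein lipase, by 1.54, the lipid droplet proteins Plin4 by 1.20 and Cidec by 1.12, and the hormone adiponectin (Adipoq) by 1.05, while the glucose transporter Slc2a4 was lower by -0.87. Of 8 macrophage markers 2 were lower (Cd68 by -1.12 and Lyz2 by -0.89), and of 5 endothelial markers 3 were higher (Tek, Tie1 and Cdh5, by 0.46, 0.44 and 0.24). No epithelial or red blood cell marker was called in total KO. All 5 red blood cell genes were lower in β WT than in total WT, by -0.59 to -1.11. Of 4 reference genes, Actb was lower in total KO by -0.27.

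The name rule also takes proteins that are not subunits and forms of other tissues. Without Atp5s, Atp5sl, Cox7a2l, Ndufa4l2, Cox6a2, Cox6b2 and Cox7b2, 28 of 73 subunits were higher in total KO and none lower with limma, with 34 at an unadjusted p under 0.05. Ndufab1, the mitochondrial acyl carrier protein and a complex I subunit, and Cyc1, cytochrome c1 of complex III, fell outside the rule and were higher by 0.38 and 0.24.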
